A study of Mus musculus with 9 samples.

Results

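The pyruvate dehydrogenase complex and the enzymes that switch it off and on were examined in mouse primary macrophages at 3 oxygen exposures. The set was chosen by gene symbol and held 10 of the 34866 genes in the deposited expression tables. It comprised the 4 kinases Pdk1, Pdk2, Pdk3 and Pdk4, the 2 phosphatase catalytic subunits Pdp1 and Pdp2, and the 4 complex genes Pdha1, Pdhb, Dlat and Pdhx. All 10 identifiers were found, and 9 of the 10 genes reached the mean of 1 TPM (a length-corrected share of a library's transcripts) required for testing. Pdk4 did not.

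All groups grew in alpha-MEM supplemented with serum and L929-conditioned medium, which carries the macrophage growth factor that L929 fibroblasts secrete. The standard oxygen group stayed in standard oxygen for 7 days. The acute hypoxia group was kept in standard oxygen and ended with 3 hours at 1% oxygen. The total time in culture of that group is not given in the sources used here. The chronic hypoxia group spent all 7 days at 1% oxygen. Each group had 3 biological replicates, and no group carried a genetic change according to the labels. The source tissue, strain, sex and age of the mice, and whether animals were pooled, are not given in the sources used here.

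The pyruvate dehydrogenase complex sits in the mitochondrial matrix and converts pyruvate to acetyl-CoA, the step that commits the carbon of glucose to the citric acid cycle. Pyruvate dehydrogenase kinases phosphorylate the alpha subunit of its first enzyme and stop this conversion, and pyruvate dehydrogenase phosphatases remove the phosphate and restore it. Pdk1 is a well known target of the hypoxia-inducible factor HIF-1, and through it cells in low oxygen can divert pyruvate to lactate. In macrophages this switch is part of the glycolytic state. Only mRNA was measured here, not kinase activity, phosphorylation or flux.

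TPM is corrected for length, so levels may be compared between genes, but it keeps no depth, which is therefore unknown. The labels give digits shared by 1 library of each group, here called codes X, Y and Z, whose meaning is not stated. All 7 macrophage markers were detected, with a summed level of 55370 to 73290 TPM in a library. Most of this sum was Lyz2, at 52793 to 70403 TPM. In standard oxygen, acute and chronic hypoxia the means were 470, 470 and 699 TPM for Csf1r and 535, 551 and 760 TPM for Itgam. They were 541.5, 531 and 413 TPM for Adgre1, 40.9, 40.9 and 30.2 TPM for Fcgr1, and 1309, 1103 and 1309 TPM for Cd68. Summed markers of fibroblasts, dendritic cells, lymphocytes and red cells were at most 1.5 TPM, and 5 of 6 neutrophil and 3 of 4 osteoclast markers stayed under 1 TPM in every library. The libraries of code Z stood apart from the rest, with 2.21 to 3.37 TPM of the macrophage receptor gene Mertk against 21.8 to 33.3 TPM elsewhere, and with 33.9 to 51.0 TPM of the osteoclast gene Ctsk against 7.57 to 11.9 TPM. The neutrophil gene S100a8, also expressed by monocytes, was at 258 to 582 TPM in chronic hypoxia and 895 to 1906 TPM in the other groups, and its part in the results was not tested. Values are therefore given by code, and a fit with the code as a block, which compares libraries within codes, is given beside the fit without one.

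Pdk1 (ENSMUSG00000006494, GRCm38 chr2:71873224-71903858, plus strand) was the member whose level followed the oxygen exposure most clearly. The bases from 150 before to 20 after its RefSeq start are shown because they hold 2 copies of the letters GCGTG, a form of the core motif that hypoxia-inducible factors bind. Pdk3, a kinase gene whose level did not separate the groups, is shown beside it because it holds more of them. Capitals mark each match to ACGTG or GCGTG on either strand, read as CACGT or CACGC on the other strand. The 5′ to 3′ sequences lie at chr2:71873074-71873243 for Pdk1 (plus strand) and chrX:93832131-93832300 for Pdk3 (minus strand), from RefSeq, GRCm38.p6.
Pdk1: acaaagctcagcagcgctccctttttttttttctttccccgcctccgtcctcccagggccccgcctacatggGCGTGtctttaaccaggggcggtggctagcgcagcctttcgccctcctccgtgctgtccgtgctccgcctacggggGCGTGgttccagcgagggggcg
Pdk3: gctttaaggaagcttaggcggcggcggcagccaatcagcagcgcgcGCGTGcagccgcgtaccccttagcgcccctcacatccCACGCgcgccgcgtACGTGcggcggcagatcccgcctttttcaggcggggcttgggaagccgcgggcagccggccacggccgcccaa
The Pdk1 copies begin 78 and 2 bases before the start. Over the full 300 bases of a promoter entry (250 before and 50 after the start), Pdk3 and Pdha1 held 4 matches each, Pdk1, Pdhb and Pdhx held 2, Pdk2, Pdk4 and Pdp2 held 1, and Dlat held 0. A second annotated start of Pdk1 and of Pdk2 held 0. At least 1 match was present in 43.8% of 32851 promoter entries, at least 2 in 17.5% and at least 4 in 2.64%. Genes with as many matches as Pdk1 or more (Pdk3, Pdha1, Pdhb and Pdhx) did not pass the test in any comparison. A match of letters is a description and not a binding site, and the part of the matches in these levels was not tested. The first Pdk1 start and those of Pdhx and Dlat coincide with the gene start in GENCODE, and the others do not. Promoter entries were found for 9 of the 10 genes, all but Pdp1.

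In standard oxygen Pdk1 measured 52.2, 52.2 and 55.2 TPM in the libraries of code X, Y and Z. After 3 hours of 1% oxygen it measured 90.8, 97.3 and 89.5 TPM. After 7 days it measured 151, 148 and 148 TPM. The 3 groups formed 3 tight and separate steps, with means of 53.2 ± 1.72, 92.5 ± 4.15 and 149 ± 1.62 TPM (SD, n = 3). Code Z, whose libraries stood apart above, measured 1.06, 0.952 and 0.988 times the mean of codes X and Y at the 3 steps. In bulk RNA, a different share of cells and a different amount of RNA per cell (fewer cells of a type, less RNA per cell) cannot be told apart.

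**Figure D1:**
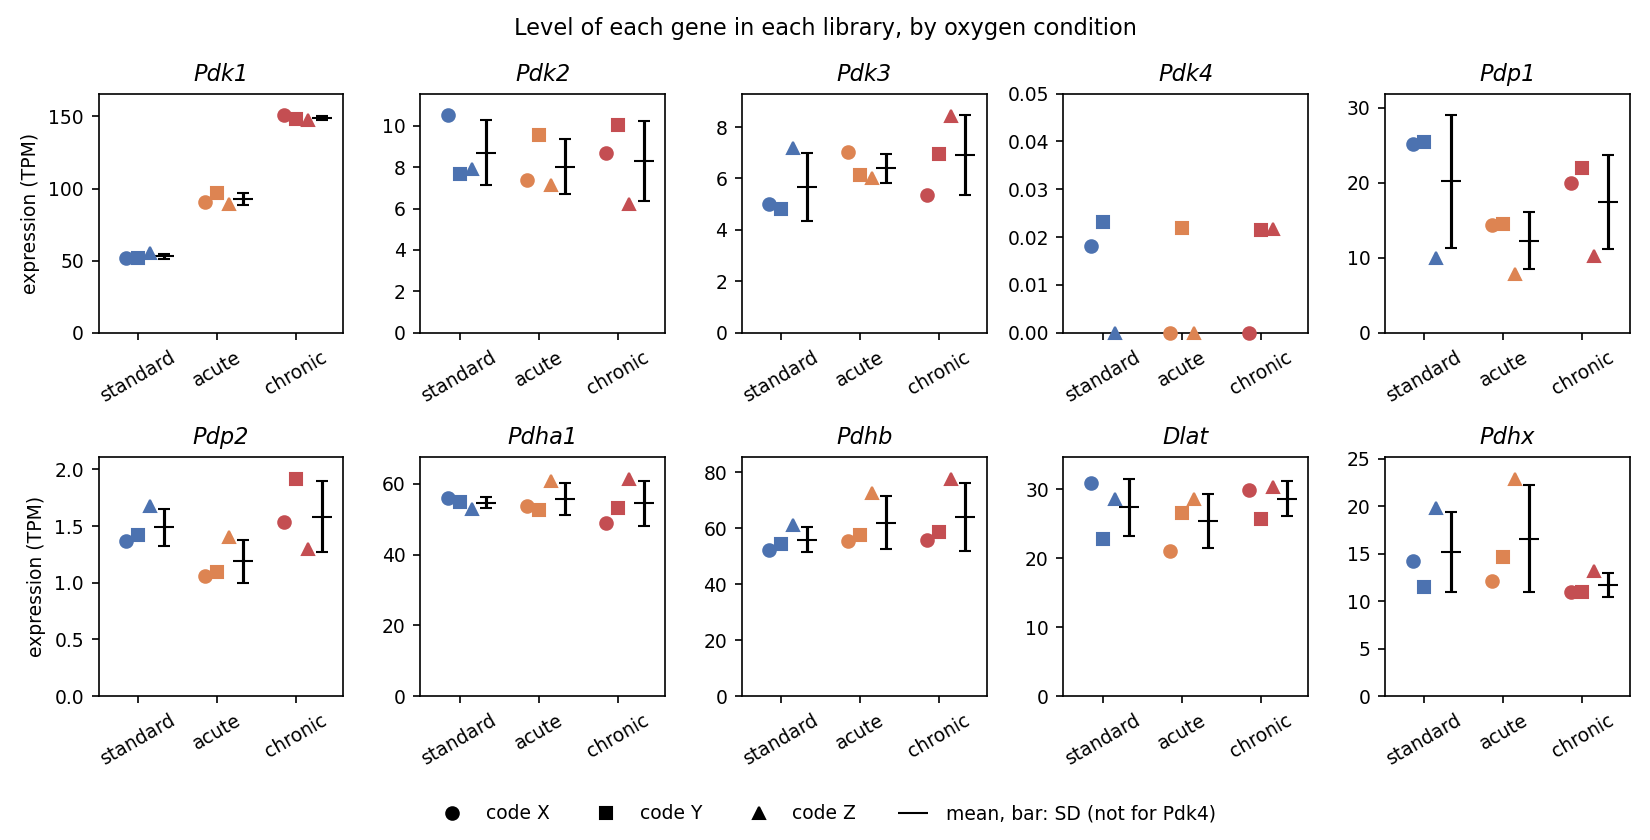
Level of each of the 10 genes in TPM (vertical axes differ in range) for every library in standard oxygen, acute and chronic hypoxia. Marker shapes give the code, and the horizontal bar with whiskers gives the mean and SD of 3 libraries, omitted for Pdk4. Pdk1 forms 3 separate steps at 53.2, 92.5 and 149 TPM, the code Z libraries are low for Pdp1, and Pdk4 stays near 0.

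Acute hypoxia against standard oxygen gives the response at 3 hours. Pdk1 was 1.74-fold higher in acute hypoxia, a log2 fold change of 0.79 ± 0.0827 (SE, 95% confidence interval 0.59 to 0.99). All 3 acute libraries lay above all 3 standard libraries, and the log2 differences within codes X, Y and Z were 0.79, 0.89 and 0.69. The limma Benjamini-Hochberg adjusted p over all genes was 0.0568, just short of the 0.05 threshold, and it was 0.0299 under the code block. Of the 9 members tested, 0 passed without a block, where 0.0273% of 10987 genes passed, and 1 member and 785 of all genes had an unadjusted limma p under 0.05. The code block let 1 member pass, Pdk1, where 0.71% of genes passed. Groups did not overlap for 1 of the 9 members, against 12.5% of all genes tested. With 1 library left out, the adjusted p of Pdk1 was 0.0475 without standard oxygen replicate 2 and 0.0870 to 0.381 without each of the other 5.

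Chronic hypoxia against standard oxygen gives the state after 7 days. Pdk1 rose 2.80-fold, a log2 fold change of 1.47 ± 0.0834 (SE, 95% confidence interval 1.27 to 1.67), with a limma adjusted p of 0.00482 and of 0.00437 under the code block. It ranked 2 of 11067 genes by limma p without a block, 10 under the code block, and 125 by log2 fold change. By p it ranked 8 and 39 in acute against standard oxygen, without a block and with the code block. The same ranks were 32 and 120 in chronic against acute hypoxia. The SE from its own 6 libraries was 0.0277, and the moderated SE of limma was 0.0834. Of the 9 members 1 passed with or without the block, where 2.69% of genes passed without it and 18.4% with it. Groups did not overlap for 1 of the 9, against 29.6% of all genes. The call was lost without chronic hypoxia replicate 2, with an adjusted p of 0.0623. Median-of-ratios rescaling moved the median log2 fold change of all genes from 0.16 to about 0 and that of Pdk1 to 1.29, still past the threshold at an adjusted p of 0.00510.

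Chronic against acute hypoxia sets 7 days of low oxygen against 3 hours, in separate cultures. Growth in low oxygen and longer exposure cannot be told apart here. Pdk1 was 1.61-fold higher in chronic than in acute hypoxia. The log2 fold change was 0.68 ± 0.0856 (SE, 95% confidence interval 0.48 to 0.89), with a limma adjusted p of 0.0448 and of 0.0108 under the code block. Within codes X, Y and Z the log2 differences were 0.73, 0.60 and 0.72. Of the 9 members 1 passed without a block and 2 with the code block, where 0.695% and 15.5% of 11087 genes passed. Groups did not overlap for 1 of the 9, against 27.8% of all genes. This call without a block was close to the threshold: the adjusted p of Pdk1 was 0.0864 after median-of-ratios rescaling, where the log2 fold change was 0.53, and it exceeded 0.05 when any acute library, chronic replicate 1 or chronic replicate 2 was left out (0.0567 to 0.236). It was 0.0311 without chronic replicate 3. Each group enters 2 of the 3 comparisons, which therefore share libraries.

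**Figure D2:**
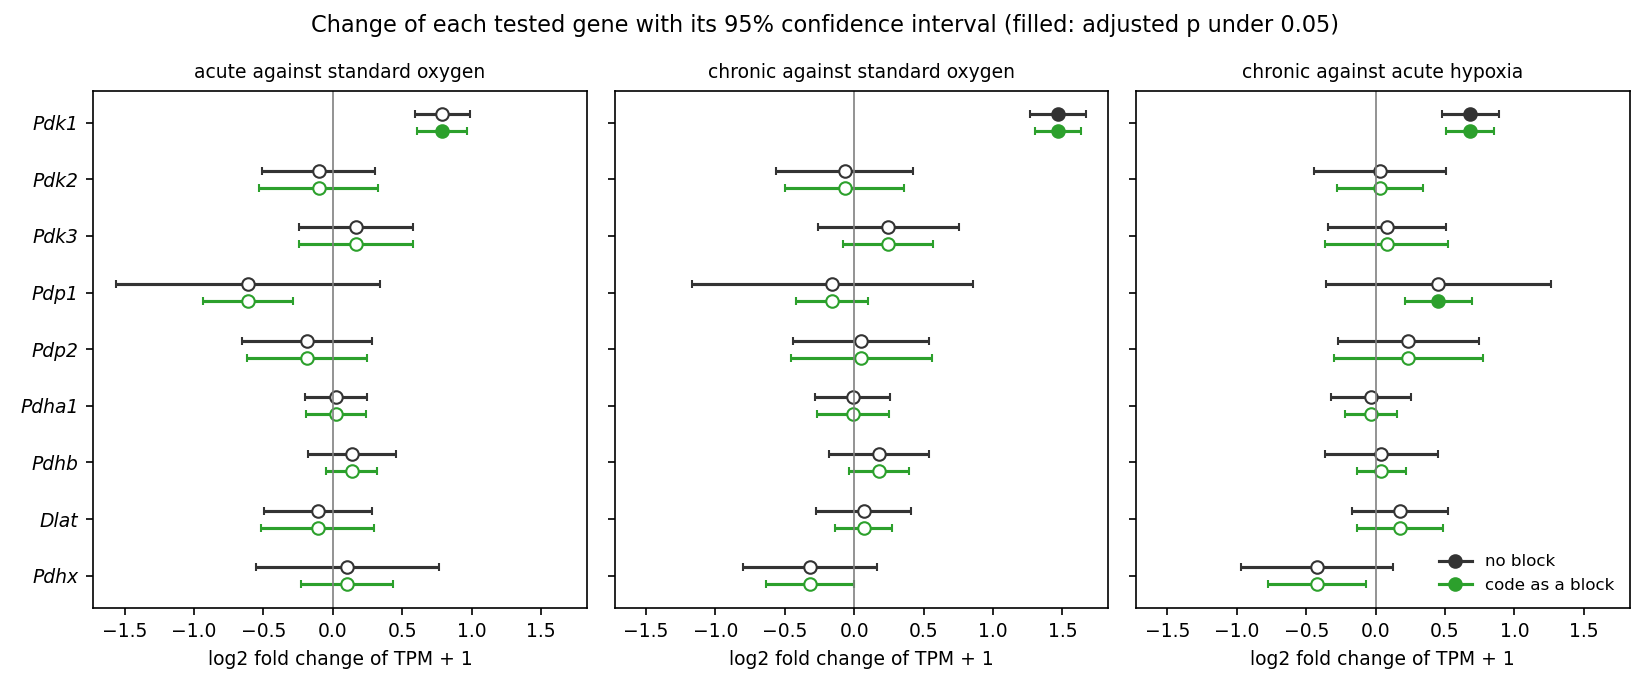
Log2 fold change of TPM + 1 for the 9 tested genes in each comparison, with 95% confidence intervals, from limma without a block (black) and under the code block (green). Filled points have an adjusted p under 0.05. Pdk1 lies to the right of 0 in all 3 panels (0.79, 1.47 and 0.68), and the only other filled point is Pdp1 in chronic against acute hypoxia with the block (0.45).

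The other 3 kinases did not follow Pdk1. Pdk2 (ENSMUSG00000038967, chr11:95026258-95041354, minus strand), a broadly expressed isoform, measured 10.5, 7.65 and 7.92 TPM in standard oxygen. It measured 7.35, 9.54 and 7.14 TPM in acute hypoxia and 8.66, 10.0 and 6.20 TPM in chronic hypoxia. The 3 groups overlapped, and the highest library was code X in standard oxygen and code Y in both hypoxia groups. Its log2 fold change was -0.10 in acute hypoxia (95% confidence interval -0.51 to 0.31) and -0.07 in chronic hypoxia (-0.56 to 0.42), both against standard oxygen, with limma adjusted p-values of 1.00 and 0.872. A rise of the size seen for Pdk1 lies outside both intervals. An annotated antisense gene overlaps Pdk2, and whether the counting used strand is not stated.

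Pdk3 (ENSMUSG00000035232, chrX:93764607-93832201, minus strand), the isoform least sensitive to inhibition by pyruvate, measured 5.03, 4.80 and 7.17 TPM in standard oxygen. The values were 7.05, 6.12 and 6.04 TPM in acute hypoxia and 5.34, 6.94 and 8.44 TPM in chronic hypoxia. Chronic hypoxia was higher than standard oxygen within each code, by 0.07, 0.45 and 0.21 on the log2 scale, but the groups overlapped. The log2 fold change against standard oxygen was 0.17 in acute hypoxia (-0.25 to 0.58) and 0.25 in chronic hypoxia (-0.26 to 0.76), with limma adjusted p-values of 0.997 and 0.535. Pdk4 (ENSMUSG00000019577, chr6:5483351-5496309, minus strand), the isoform induced by fasting and fatty acids in muscle and heart, was listed at 0 in 4 libraries and at no more than 0.0231 TPM in the other 5. The kinase mRNA of these macrophages was thus almost wholly that of Pdk1, Pdk2 and Pdk3.

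From standard oxygen through acute to chronic hypoxia, the summed mRNA of the 4 kinases was 67.6 ± 2.80, 107 ± 5.34 and 164 ± 1.57 TPM (SD, n = 3). Pdk1 held 78.8% ± 1.85, 86.5% ± 0.563 and 90.7% ± 0.920 of that sum in the same order. Pdk2 held 12.9% ± 2.30, 7.46% ± 0.852 and 5.05% ± 1.14, and Pdk3 held 8.35% ± 1.61, 6.0% ± 0.649 and 4.21% ± 0.978. The shares of Pdk2 and Pdk3 were lower in hypoxia although their own TPM did not pass the test, since the sum they are divided by was larger. The ranges of the Pdk1 share did not overlap between any 2 groups. No test was made of the share, since Pdk1 dominates it.

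**Figure D3:**
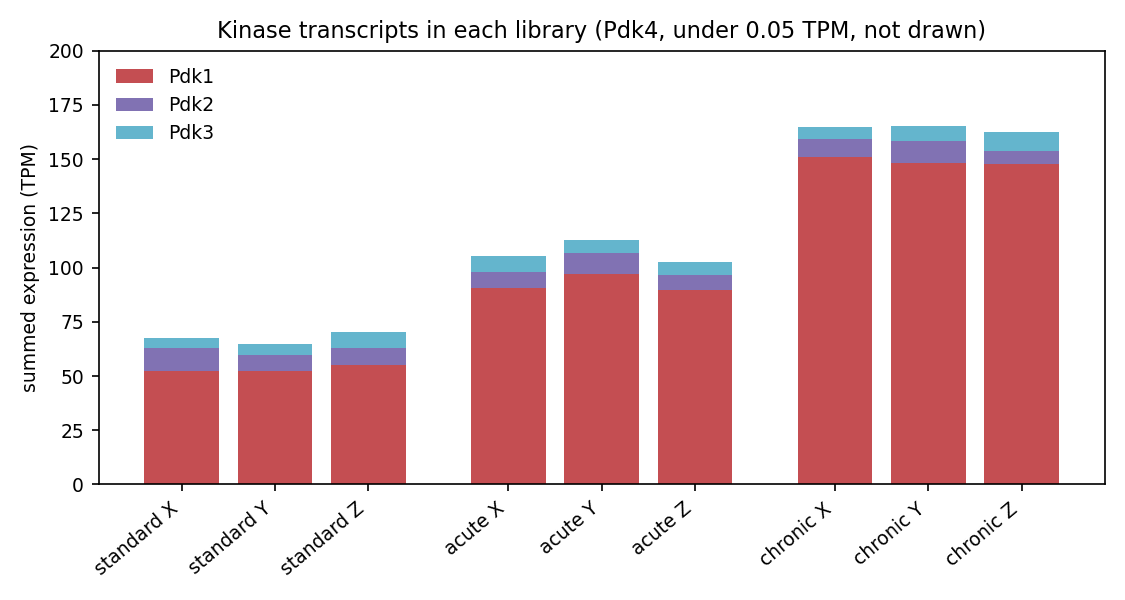
Summed TPM of Pdk1, Pdk2 and Pdk3 in each of the 9 libraries, stacked by kinase, with libraries named by group and code. The stacks are 64.7 to 70.3 TPM high in standard oxygen, 103 to 113 after acute and 162 to 165 after chronic hypoxia, and the Pdk1 segment is the part that grows.

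Set against its substrate, kinase mRNA per Pdha1 mRNA was 1.24 ± 0.0797, 1.93 ± 0.229 and 3.04 ± 0.371 in the same order (SD, n = 3). In standard oxygen Pdhb, Pdha1 and Pdk1 stood at 55.9, 54.7 and 53.2 TPM, closer together than the SD of Pdhb. In chronic hypoxia Pdk1 stood above both, at 149 TPM against 64 and 54.5 TPM. The rest of the order was the same by mean in standard oxygen and chronic hypoxia: Dlat, Pdp1, Pdhx, Pdk2, Pdk3, Pdp2 and Pdk4, although Dlat and Pdp1 in standard oxygen, Pdp1 and Pdhx in both groups, and Pdk2 and Pdk3 in chronic hypoxia lay closer together than the larger of their SDs. In acute hypoxia Pdhx (16.6 TPM) stood above Pdp1 (12.3 TPM), but their ranges overlapped.

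Pdp1 (ENSMUSG00000049225, chr4:11958184-11966452, minus strand) encodes the calcium-stimulated catalytic subunit of the phosphatase that reactivates the complex. It measured 25.1, 25.4 and 9.98 TPM in standard oxygen for codes X, Y and Z. In acute hypoxia it measured 14.4, 14.5 and 7.91 TPM, and in chronic hypoxia 20.0, 22.0 and 10.3 TPM. The code Z library was the lowest of its group each time, at 0.395, 0.547 and 0.490 of the mean of the other two codes in standard oxygen, acute and chronic hypoxia. The distance between code Z and the other codes in standard oxygen was larger than that between any 2 group means, and the same 3 libraries had the low Mertk and high Ctsk given above. Their part in the Pdp1 result was not tested beyond the values by code that follow.

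Within every code Pdp1 was lower in acute hypoxia than in standard oxygen, with log2 differences of -0.76, -0.77 and -0.30 for codes X, Y and Z. Within every code it was higher in chronic than in acute hypoxia, by 0.45, 0.57 and 0.34. The log2 fold change in acute hypoxia was -0.61 ± 0.398 (SE, 95% confidence interval -1.57 to 0.34), with a limma adjusted p of 0.923. The value was -1.03 without standard oxygen replicate 2 and -0.35 without acute hypoxia replicate 3, both of code Z. With the code as a block the SE was 0.126 and the adjusted p 0.149. It passed without the code Z libraries (-0.77, limma adjusted p 0.0191) and with the code block over all 9 libraries in 1 fit (0.0479).

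The step from acute to chronic hypoxia was 0.45 ± 0.338 (log2, SE) with a limma adjusted p of 0.490, and it was 0.19 without acute replicate 3, 0.26 without chronic replicate 2 and 0.77 without chronic replicate 3. It passed with the code as a block, at an adjusted p of 0.0389, with that block over all 9 libraries (0.0286) and without code Z (0.0289). It did not pass when the code block was joined to median-of-ratios rescaling (0.102). Against standard oxygen, chronic hypoxia differed by -0.16 (-1.17 to 0.85), with an adjusted p of 0.856, and by -0.31, -0.20 and 0.04 within codes X, Y and Z. Pdp1 was thus lowest at 3 hours within each code. The code block alone gave the rise from acute to chronic hypoxia a call and the difference between acute hypoxia and standard oxygen none.

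**Figure D4:**
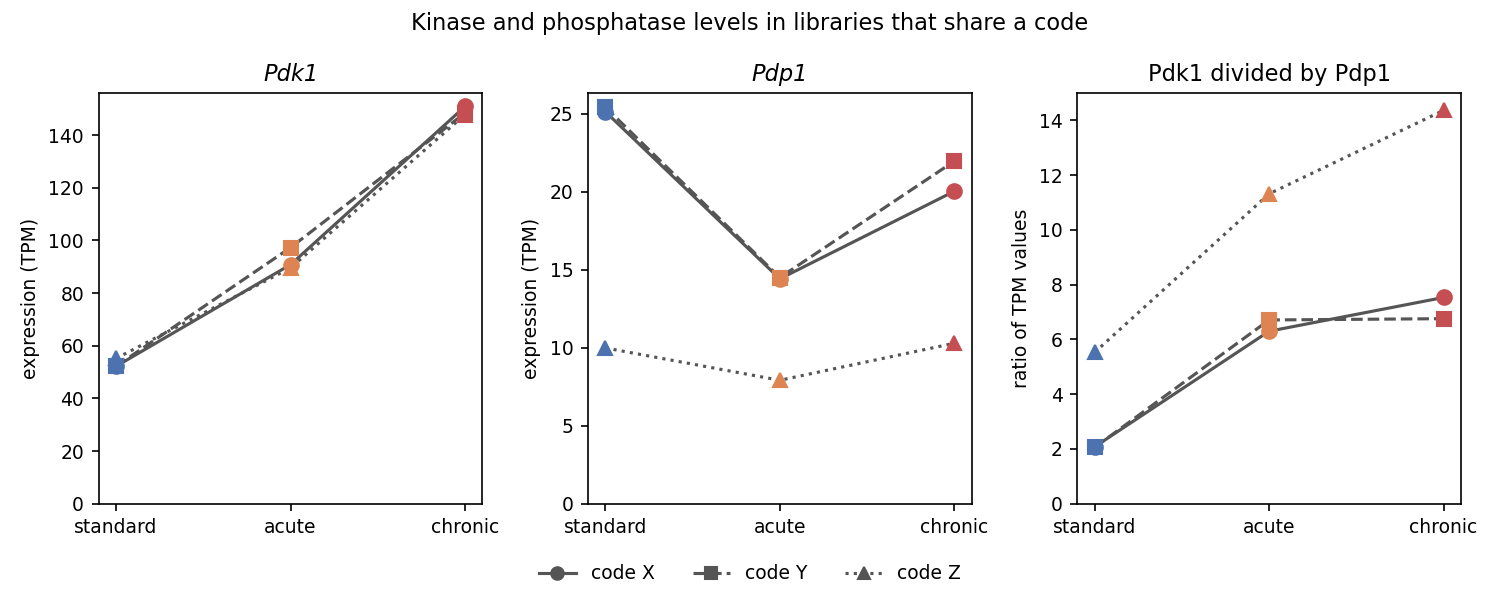
Pdk1 and Pdp1 in TPM, and the ratio of Pdk1 to Pdp1, in the 3 groups, with lines joining libraries that share a code. The Pdk1 lines run together, the Pdp1 lines dip in acute hypoxia in each code, and code Z lies below codes X and Y for Pdp1 and above them for the ratio.

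Pdp2 (ENSMUSG00000048371, chr8:104591451-104599026, plus strand), the other phosphatase catalytic subunit, was expressed at 1.06 to 1.92 TPM over the 9 libraries. Its means were 1.49 ± 0.166, 1.19 ± 0.191 and 1.58 ± 0.312 TPM in standard oxygen, acute and chronic hypoxia (SD, n = 3). It was lower in acute hypoxia within each code (-0.20, -0.21 and -0.15 on the log2 scale), with a limma adjusted p of 1.00 for a log2 fold change of -0.19. Pdp1 made up 91.7%, 90.3% and 91.2% of the summed phosphatase mRNA in the 3 groups. The ratio of Pdk1 to Pdp1 mRNA was 2.08, 2.05 and 5.53 in standard oxygen for codes X, Y and Z. It was 6.30, 6.71 and 11.3 in acute hypoxia and 7.53, 6.76 and 14.4 in chronic hypoxia. The ratio was higher in both hypoxia groups than in standard oxygen within each code, and code Z was the highest of each group.

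No gene of the complex itself passed the test in any comparison, with or without the code block. Pdha1 (ENSMUSG00000031299, chrX:160122209-160138413, minus strand), the alpha subunit of the first enzyme and the target of the kinases, had means of 54.7 ± 1.61, 55.7 ± 4.43 and 54.5 ± 6.42 TPM in standard oxygen, acute and chronic hypoxia (SD, n = 3). Its libraries measured 56.1, 54.9 and 52.9 TPM in standard oxygen. Acute hypoxia gave 53.6, 52.6 and 60.8 TPM, and chronic hypoxia gave 48.9, 53.1 and 61.5 TPM. The groups overlapped. Code Z went from the lowest library in standard oxygen to the highest in both hypoxia groups. The log2 fold change against standard oxygen was 0.02 in acute hypoxia (-0.20 to 0.25) and -0.01 in chronic hypoxia (-0.28 to 0.26), and the limma adjusted p-values were 1.00 and 0.968. Of its 75-base stretches 13.9% also occur in Map3k15, which overlaps it on the opposite strand, so their reads could not be told apart with certainty. Map3k15 was at 0.494 to 0.800 TPM.

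Pdhb (ENSMUSG00000021748, chr14:8165996-8173025, minus strand), the beta subunit of the first enzyme, measured 52.3, 54.4 and 61.0 TPM in standard oxygen. Acute hypoxia gave 55.4, 57.6 and 72.7 TPM, and chronic hypoxia gave 55.6, 58.6 and 77.7 TPM. Code Z was the highest of each group, and both hypoxia groups lay above standard oxygen within each code, by 0.08, 0.08 and 0.25 in acute and 0.09, 0.11 and 0.34 in chronic hypoxia on the log2 scale. The log2 fold changes of 0.14 (-0.18 to 0.45) and 0.18 (-0.18 to 0.54) had limma adjusted p-values of 0.992 and 0.521. The 0.18 became about 0 after median-of-ratios rescaling. The ratio of Pdha1 to Pdhb mRNA was between 0.791 and 1.07 in all 9 libraries and was lower in chronic hypoxia than in standard oxygen within each code, at 0.879, 0.906 and 0.791 against 1.07, 1.01 and 0.867.

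Dlat (ENSMUSG00000000168, chr9:50634633-50659780, minus strand), the acetyltransferase core that carries the lipoyl arms, had means of 27.4 ± 4.14, 25.4 ± 3.92 and 28.7 ± 2.58 TPM (SD, n = 3). It ranged from 21 to 30.9 TPM with no order by group or code. Its log2 fold changes against standard oxygen were -0.11 (-0.50 to 0.28) and 0.07 (-0.27 to 0.41). Pdhx (ENSMUSG00000010914, chr2:103021075-103073513, minus strand), the binding protein that anchors dihydrolipoamide dehydrogenase in the complex, measured 14.2, 11.5 and 19.8 TPM in standard oxygen. It measured 12.2, 14.6 and 22.9 TPM in acute hypoxia and 11.01, 10.99 and 13.2 TPM in chronic hypoxia.

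Pdhx was lower in chronic hypoxia than in standard oxygen within each code, with log2 differences of -0.34, -0.06 and -0.55. Against acute hypoxia they were -0.13, -0.38 and -0.75. The differences were uneven between codes and the groups overlapped. The log2 fold changes were -0.32 ± 0.203 against standard oxygen and -0.42 ± 0.229 against acute hypoxia (SE). The limma adjusted p-values were 0.397 and 0.343, or 0.129 and 0.0994 under the code block. The difference from standard oxygen was -0.12 without standard replicate 2 and -0.49 without standard replicate 3 or after median-of-ratios rescaling. That from acute hypoxia was -0.18 without acute replicate 3 and -0.61 without acute replicate 1, and -0.26 without code Z. The ratio of Dlat to Pdhx mRNA was 1.45 to 2.18 in standard oxygen, 1.25 to 1.82 in acute hypoxia and 2.31 to 2.72 in chronic hypoxia. The chronic range lay above the other two. This ratio was one of several examined, and no test was made of it.

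Between chronic and acute hypoxia the log2 fold changes of Pdk2, Pdk3 and Pdp2 were 0.03, 0.08 and 0.24, and those of Pdha1, Pdhb and Dlat were -0.03, 0.04 and 0.18. None of these 6 passed the test in limma with or without the code block, and those of Pdk2, Pdk3 and Pdhb turned negative after rescaling. Over the 9 tested members the median log2 fold change was 0.02 in acute hypoxia and 0.05 in chronic hypoxia against standard oxygen, and 0.08 between chronic and acute hypoxia. Over all genes tested the medians were 0.01, 0.16 and 0.14. The median of the members lay close to that of all genes in acute hypoxia against standard oxygen. In both comparisons with chronic hypoxia it lay lower. Beside Pdk1 the other 8 members did not pass without a block in the fit over all 6 libraries of a comparison. Pdp1 passed without the code Z libraries in acute against standard and in chronic against acute, as given above.

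The genes around the complex were read from a list of 24, covering dihydrolipoamide dehydrogenase, the mitochondrial pyruvate carrier, lactate dehydrogenase and pyruvate kinase, lipoate and thiamine cofactor supply, the sister 2-oxoacid dehydrogenases, and citrate handling. Of the 24, 23 were tested, and Ldhb was below the level required. Without a block 0 of 23 passed in any comparison in limma, while 2, 5 and 1 had an unadjusted p under 0.05 in acute against standard, chronic against standard and chronic against acute. Over all genes 7.14%, 22.9% and 20.8% had one. The code block gave 1, 3 and 1 of the 23, where it called 0.71%, 18.4% and 15.5% of all genes. The median log2 fold changes were -0.04, -0.14 and -0.03. Neither this list nor the regulator list below was fitted after median-of-ratios rescaling, so no call in them was checked against it.

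Ldha, which turns pyruvate to lactate, measured 856, 880 and 1439 TPM in standard oxygen. Acute hypoxia gave 1616, 1745 and 2693 TPM, and chronic hypoxia gave 2145, 2297 and 2882 TPM. It was higher at each step within every code, and code Z was the highest of each group. With the code as a block it rose by 0.94 in acute hypoxia (limma adjusted p 0.00871) and by 1.24 in chronic hypoxia (0.00843). Without the block the adjusted p-values were 0.470 and 0.0508. Pkm, pyruvate kinase, had means of 2440, 3004 and 3431 TPM and rose by 0.50 in chronic hypoxia with the block (0.0238), against 0.126 without it. Of the 75-base stretches of Ldha and Pkm, 5.23% and 15.6% also occur in another listed gene, so their reads could be split with copies.

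Mpc2, a subunit of the carrier that brings pyruvate into mitochondria, measured 82.1, 90.4 and 167 TPM in standard oxygen. Acute hypoxia gave 86.2, 98.8 and 159 TPM, and chronic hypoxia gave 62.6, 67.9 and 112 TPM. With the code as a block it fell by 0.46 against standard oxygen (limma adjusted p 0.0226) and by 0.50 against acute hypoxia (0.0151), and code Z was the highest of each group. Without the block the adjusted p-values were 0.455 and 0.395. Its partner Mpc1 was between 109 and 240 TPM, with code Z the lowest of each group, and did not pass. Dld, the dihydrolipoamide dehydrogenase shared with the sister complexes, had a log2 fold change of -0.24 in chronic hypoxia (limma adjusted p 0.447). At the ends of the list in acute hypoxia stood Ldha and Ppm1k, the phosphatase of the branched-chain complex, which measured 3.12, 1.98 and 3.68 TPM in standard oxygen and 1.16, 1.26 and 1.37 TPM in acute hypoxia, a log2 fold change of -0.77 with a limma adjusted p of 0.468. Ppm1k was also at the upper end between chronic and acute hypoxia (0.59), where 1 of the 3 chronic libraries measured 5.37 TPM and the others 1.47 and 1.52 TPM.

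A regulator list of 14 genes held the hypoxia-inducible factor subunits and their hydroxylases, the PPAR and FOXO families, and the glucocorticoid receptor, among others. Whether any of them acted on the kinase genes here was not tested. Of the 14, 12 were tested. Ppara and Ppargc1a were below the level required. Without a block 0 of 12 passed in acute hypoxia in limma, where 6 had an unadjusted p under 0.05, against 7.14% of all genes. In chronic hypoxia against standard oxygen 3 rose and 1 fell, where 2.69% of all genes passed. Between chronic and acute hypoxia 0 passed, and the unadjusted p of 4 was under 0.05, against 20.8% of all genes. The code block gave 2, 5 and 2 of the 12, beside the 0.71%, 18.4% and 15.5% of all genes. The median log2 fold changes were 0.24, 0.22 and 0.07. Pparg and Egln3 were at the ends in both comparisons with standard oxygen, and Ppard (-0.62) and Egln3 (1.92) between chronic and acute hypoxia.

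Egln3, an oxygen-sensing prolyl hydroxylase and a HIF target, measured 9.08, 9.75 and 30.7 TPM in standard oxygen. Acute hypoxia gave 111, 110 and 231 TPM, and chronic hypoxia gave 562, 537 and 514 TPM. It rose by 5.16 on the log2 scale in chronic hypoxia against standard oxygen (limma adjusted p 0.0077). Without a block neither the first step (3.24, adjusted p 0.125) nor the second (1.92, adjusted p 0.0504) passed in limma, and under the code block both did (0.00814 and 0.0141). Egln1, the main hydroxylase of HIF-1 alpha, had means of 30.3, 86.5 and 90.6 TPM, with log2 fold changes of 1.48 and 1.55 and limma adjusted p-values of 0.0552 and 0.0077. Nr3c1, the glucocorticoid receptor, had means of 16.4 ± 1.09, 21.5 ± 1.86 and 32.0 ± 3.66 TPM (SD, n = 3) and rose by 0.92 in chronic hypoxia (limma adjusted p 0.0254).

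Pparg, a nuclear receptor for fatty acids, stood at 34.1 ± 0.412 TPM in standard oxygen and fell to 14.2 ± 2.44 TPM (SD, n = 3) after 7 days of 1% oxygen. The log2 fold change was -1.22 with a limma adjusted p of 0.0146. In acute hypoxia it was at 14.7 ± 3.49 TPM, with a limma adjusted p of 0.0874 against standard oxygen. Hif1a mRNA had means of 38.7, 49.95 and 52.2 TPM. Its log2 fold change in chronic hypoxia was 0.42, which passed with the code as a block (limma adjusted p 0.0231) and had an adjusted p of 0.0658 without it. HIF-1 alpha is known to be set chiefly through its protein, which was not measured.

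**Figure D5:**
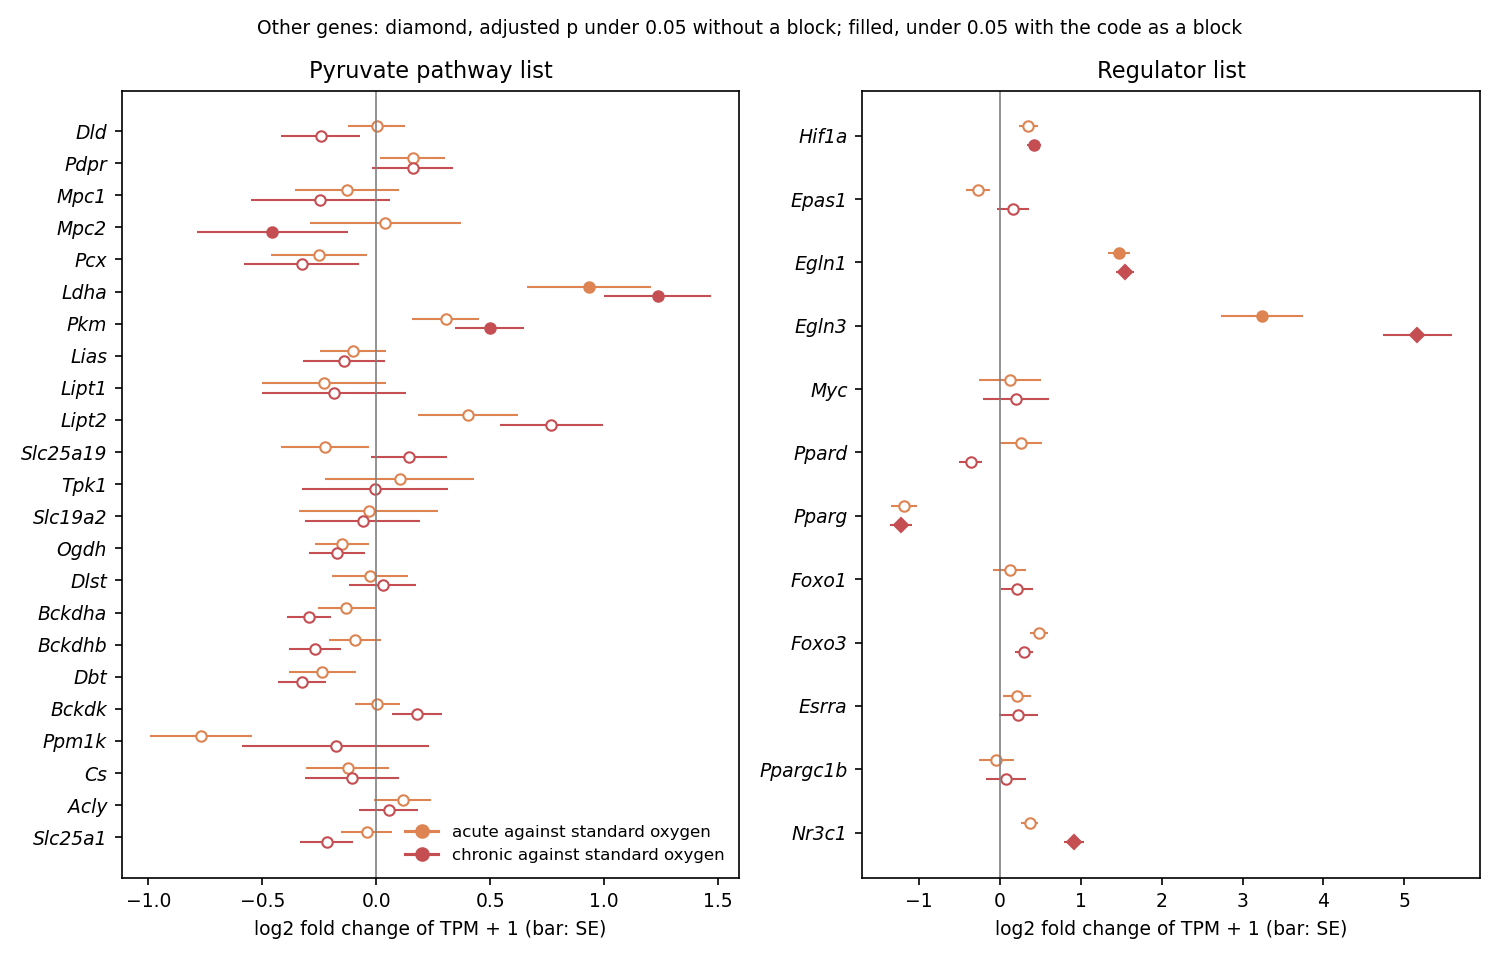
Log2 fold change of TPM + 1 in acute and chronic hypoxia against standard oxygen for the 23 tested pathway genes and the 12 tested regulators, with bars of 1 SE from the fit without a block. Diamonds passed without a block and filled symbols passed with the code as a block, among them Ldha at 0.94 and 1.24 and Egln3 at 3.24 and 5.16.

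The genes whose level followed Pdk1 most closely over the 9 libraries were ranked by Pearson's r of log2(TPM + 1) among 7106 genes with a mean of at least 10 TPM. The first 5 were Snx14 (r = 0.982), Ddx3x (0.981), Scaf11 (0.977), Arhgap22 (0.976) and Plod1 (0.976). The 9 libraries fall in 3 groups, so these values describe a stepwise pattern and carry no p. Plod1, a collagen lysyl hydroxylase, went from 61.4 ± 3.15 to 86.2 ± 3.59 and 135 ± 14 TPM (SD, n = 3). In proportion the steps were smaller for Snx14 at 16.2, 19.6 and 23.9 TPM, Scaf11 at 27.4, 32.0 and 36.3 TPM, and Ddx3x at 92.0, 117 and 134 TPM. Of the pathway and regulator genes above, Egln3 ranked 8 (r = 0.967) and Nr3c1 ranked 23 (r = 0.951). Egln1 ranked 165 (r = 0.886) and Hif1a 278 (r = 0.852), ahead of Ldha at 306 and Pkm at 381. Pdk2, Pdk3, Pdk4 and Pdp2 were below the mean required and were not ranked.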

How the data were processed

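Per the labels' protocols, mRNA libraries were sequenced as paired ends of 75 bases. The submitters' processing notes name FastQC, STAR, featureCounts and the build GRCm38, and the annotation and the step to TPM are not given in the sources used here. The authors deposited TPM for 34866 genes in 3 tables of 2 groups each, with identical values wherever a library appeared more than once. Depth and counting error are therefore unknown, and replicate spread is the only error.

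Genes with a mean of at least 1 TPM over the 6 libraries of a comparison were tested with limma 3.58.1 in R 4.3.3 on log2(TPM + 1) (lmFit, eBayes with trend, two-sided). P-values were adjusted over all genes by the Benjamini-Hochberg method and called under 0.05. Fold changes on this scale understate low genes. The fit without a block was run on simulated data with independent noise and no code effect. The fits with a block were not tested in this way. Samples were grouped by their labels. Digits shared in the descriptions gave the codes: code X was replicate 1 of each group, code Y was standard replicate 3, acute replicate 2 and chronic replicate 2, and code Z was standard replicate 2, acute replicate 3 and chronic replicate 3. Deviations from group means correlated within every code pair, with r from 0.375 to 0.631. Each r was taken over genes, and genes do not count as replicates. Deviations within a group cancel out, so a shift of code Z alone would also make the pairs of codes X and Y correlate. No pair of code X with code Y was compared. The r values therefore do not show that the digits of codes X and Y pair libraries. The code was used as a block beside the fit without one. Calls made only under that block rest on a pairing not shown for codes X and Y.

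Symbols, coordinates and shared 75-base stretches came from GENCODE M21 on GRCm38 (34582 of 34866 identifiers matched). The members and lists were chosen with earlier results of these data known. Named genes were all members, list genes that passed with or without the code block or stood at the ends of a list, and the 5 genes most like Pdk1. Mpc1, Dld, Map3k15, Lipt2, the branched-chain genes Bckdha, Bckdhb, Dbt and Bckdk, list genes that were not tested, and the marker genes were named besides. The alternatives covered the pseudocount, filter, trend, scaling, all 9 libraries in 1 fit, blocks, and leaving out libraries.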

Additional observations from a re-analysis of the deposited data

How the results depend on the processing

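Of the 9 tested members, 0, 1 and 1 passed without a block in acute against standard, chronic against standard and chronic against acute. In the first comparison the number was 1 under quantile normalization, all 9 samples in 1 fit, the code as replicate block and that block with median-of-ratios rescaling, and 2 under the code block with all 9 samples and without the code Z libraries. In the second it was 0 with the title number as replicate block. In the third it was 0 with no filter, eBayes without trend, median-of-ratios rescaling or quantile normalization, and 2 with either block, the code block with all 9 samples, and without code Z. In that comparison the title number and the code pair the same libraries, so the fits with either block are identical. Both stay in the counts of alternatives below. Leaving out 1 replicate gave 0 to 1 in each comparison. The share of all genes called moved as well over these alternatives, from 0% (title number block) to 2.95% (without code Z) in the first, from 0.00903% (without chronic replicate 2) to 26.3% (code block with all 9 samples) in the second, and from 0.00901% (without chronic replicate 2) to 22.1% (code block with all 9 samples) in the third. Pdk1 was higher in all 19 alternatives of each comparison and passed in 7, 17 and 10. With the title number as a block its limma adjusted p was 0.431 in acute and 0.0882 in chronic hypoxia against standard oxygen. There the deviations of libraries numbered 2 and 3 correlated with r from -0.508 to -0.279. These numbers match a code Z library with a code Y library, so a shift of code Z alone would also give negative values. The r values therefore do not show whether the numbers pair libraries. Libraries numbered 1, which share code X, had r of 0.395 and 0.387, with the limit given above for code X. The code block changed no member's call beyond those of Pdk1 and Pdp1 given above. The cause of these differences was not tested.

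Of 510 alternative values of the members, 46 changed sign. None of them passed the test, and the largest was 0.16 in size on the log2 scale. In acute against standard, Pdha1 was -0.0147 under quantile normalization and -0.0626 without code Z. With 1 replicate left out, Pdk2 ran from -0.221 to 0.027, Pdha1 from -0.0399 to 0.0619, Dlat from -0.230 to 0.0167 and Pdhx from -0.141 to 0.302. In chronic against standard, Pdk2 was 0.0502 without code Z. Rescaling, with or without the code block, gave -0.0569 for Pdp2, -0.000847 for Pdhb and -0.107 for Dlat, and quantile normalization gave -0.0923 for Pdp2 and -0.111 for Dlat. With 1 replicate left out, Pdk2 ran from -0.205 to 0.104, Pdp1 from -0.579 to 0.161, Pdp2 from -0.0418 to 0.130, Pdha1 from -0.0991 to 0.0638 and Dlat from -0.0534 to 0.156. In chronic against acute, rescaling with or without the code block gave -0.106 for Pdk2, -0.0592 for Pdk3 and -0.113 for Pdhb, and quantile normalization gave -0.126, -0.0934 and -0.072. Pdk3 was -0.0934 without code Z. With 1 replicate left out, Pdk2 ran from -0.102 to 0.206, Pdk3 from -0.0581 to 0.229, Pdha1 from -0.123 to 0.0404 and Pdhb from -0.105 to 0.161. Pdp2 gave no value with a mean of at least 5 TPM, and Pdk4 gave one only without a filter. With unknown depth, differences at the level of Pdp2 and Pdk4 are limited by counting error that could not be measured.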

Other observations

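The branched-chain 2-oxoacid dehydrogenase complex is built like the pyruvate dehydrogenase complex and breaks down branched-chain amino acids. Its genes were chosen for this paragraph after their values had been seen. Bckdha, its first-enzyme alpha subunit, measured 34.0, 37.1 and 39.0 TPM in standard oxygen and 29.9, 29.1 and 30.2 TPM in chronic hypoxia for codes X, Y and Z. Bckdhb, the beta subunit, measured 13.97, 12.6 and 11.9 TPM in standard oxygen and 10.3, 10.2 and 10.9 TPM in chronic hypoxia. Dbt, the core, measured 10.9, 10.6 and 10.3 TPM and then 8.37, 8.38 and 8.04 TPM. For each of the 3 genes all chronic libraries lay below all standard libraries, which held for 5.39% of all genes, while 24.2% lay wholly above. The log2 fold changes were -0.29, -0.27 and -0.32, with limma adjusted p-values of 0.145, 0.221 and 0.143, so none passed the test. Bckdk, the kinase of that complex, had means of 32.2 ± 2.33 and 36.7 ± 3.29 TPM (SD, n = 3) and did not pass. Of the 75-base stretches of Bckdha, 44.7% also occur in another listed gene.

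Lipt2, which attaches the lipoyl precursor used by these complexes, stood at 1.55, 2.55 and 3.20 TPM under standard oxygen. It stood at 3.48, 3.20 and 3.67 TPM after acute and at 5.37, 4.27 and 4.61 TPM after chronic hypoxia. It was higher in chronic hypoxia within every code, with a log2 fold change of 0.77 and a limma adjusted p of 0.120 without a block. Lipt2 neither passed in either fit nor stood at an end of its list, and was named outside the rule given above.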
